A study of Ginkgo biloba with 9 samples.

Results

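Leaves of Ginkgo biloba from the high planting density (HD, 80 plants per square metre) were compared with leaves from the control density (CK, 20 plants per square metre), with 3 RNA sequencing libraries in each group. The comparison covers the 19406 genes, of 41309 listed, that reached 1 FPKM in at least 3 of these 6 libraries. FPKM count the sequenced fragments of a gene, divided by its length in kilobases and by the size of the library. All trees were of the cultivar 'Fozhi', 2 years old and grown in a nursery for leaf harvest, so the groups differ by label in density alone. A group at 40 plants per square metre (MD, 3 libraries) shared in the estimate of the spread. The labels do not tell whether the 3 libraries of a group stand for separate trees, pools or plots. The p-values therefore rest on library-to-library spread that could be technical alone, and a plot or plant lot cannot be told apart from the density.

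Ginkgo is a gymnosperm whose leaves are harvested for flavonol glycosides and for terpene trilactones, the ginkgolides and bilobalide. In dense stands, neighbouring plants shade each other and compete for water and nutrients. Plants sense the loss of red light under neighbours through phytochromes, photoreceptors that alter the transcription of growth and pigment genes. The identifiers in the table carry no gene names, so no pathway can be named here and the label "leaves" was not checked against marker genes. In whole leaves, fewer cells of a type and less RNA per cell give the same fall in a transcript.

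The 6 libraries held 15513601 to 22445450 reads in genes, worked back from the FPKM. In each library, 18972 to 19105 genes reached 1 FPKM. In the 1647 tested genes of at least 100 FPKM, the CK and HD libraries numbered 3 deviated alike from their group means (correlation across genes 0.492). Pairs of CK and HD libraries of unlike number gave -0.398 to 0.322. Deviations within a group cancel out, so these pairs are not independent of the pairs of equal number. Without the libraries numbered 3 the fit described below called 8564 genes in place of 10242. Leaving out a single CK or HD library gave 9269 to 9364. The loss of power with fewer libraries was not separated from an effect of the libraries numbered 3. Most of the genes compared were expressed at both densities: 17635 of the 19406 (90.9%) reached 1 FPKM in all 6 libraries. Another 253 genes reached it in the 3 HD libraries and in no CK library, and 239 in the 3 CK libraries and in no HD library. These 2 sets passed through the group in which they were high, so a difference was built into them. The remaining 1279 genes crossed the limit in some libraries of a group. At the edge of the rule, the 740 genes that reached 1 FPKM in exactly 3 libraries had a median level of 1.1 FPKM, and the 468 genes left out with exactly 2 such libraries had 0.82 FPKM. Of the 21903 genes left out, 14400 were at 0 in all 6 libraries.

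Most of the tested genes differed between the densities, mostly by small amounts and, as deposited, about evenly in both directions. In a limma fit on log2(FPKM + 1), 10242 of 19406 genes (52.8%) had a Benjamini-Hochberg adjusted p under 0.05 and are referred to as called. Of these, 4997 were higher in HD (25.7% of tested genes) and 5245 lower (27.0%). The median called rise was 0.466 on the log2 scale, with the middle 90% of called rises between 0.188 and 1.342. The median called fall was -0.455, with the middle 90% between -1.265 and -0.177. The median standard error of a fold change was 0.0955 on the same scale. As the scatter of level against fold change shows, called genes reached down to an absolute change of 0.0617 where transcripts were abundant.

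**Figure D1:**
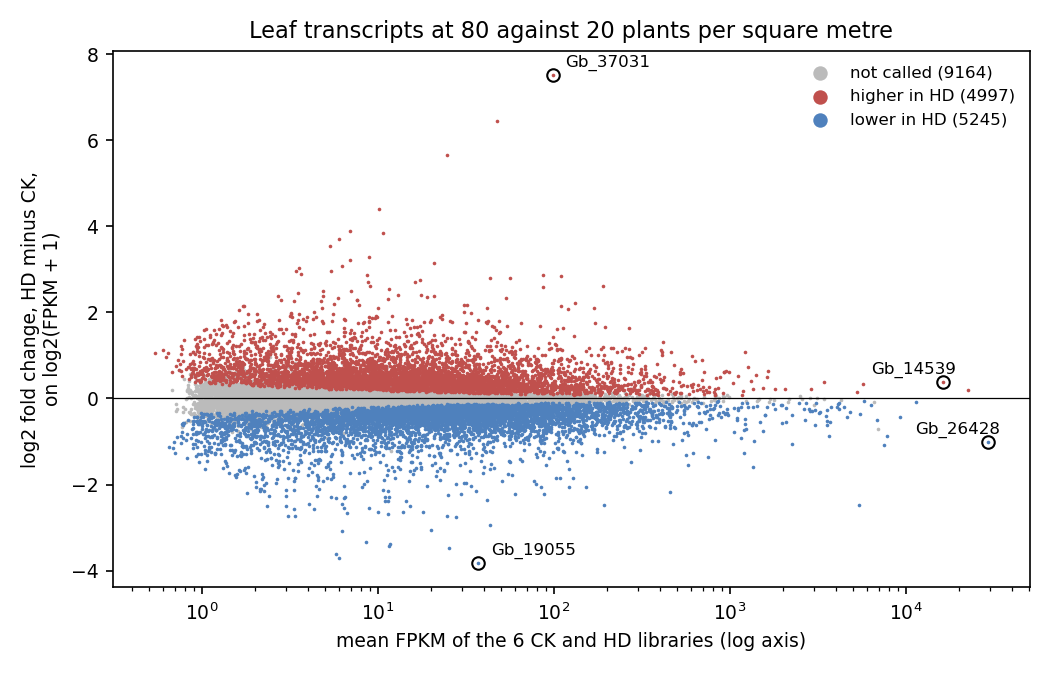
Each point is 1 of the 19406 tested genes, placed by its mean FPKM over the 6 CK and HD libraries (log axis) and its log2 fold change, HD minus CK, on log2(FPKM + 1). Red points are the 4997 genes called higher in HD, blue points the 5245 called lower and grey points those not called, and circles mark the 4 genes named in the text; the grey band narrows as the level rises.

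The even balance of directions depended on how the libraries were scaled to each other. As deposited, 48.8% of called genes were higher in HD. With each library scaled to its total recovered reads the split was 6323 higher and 4172 lower (60.2% higher), and with each library scaled to the same summed FPKM (TPM) it was 7024 and 3765 (65.1% higher). The TPM scaling moved the median gene by 0.118 on the log2 scale and total reads by 0.081. Upper-quartile scaling gave 5534 higher and 4787 lower, which also turned the balance, and quantile normalization gave 5002 and 5143. Single calls were steadier than the balance. Of the 10242 genes called as deposited, 85.5% were called in the same direction under TPM, 89.5% under total reads, 95.5% under upper-quartile scaling and 93.8% under quantile normalization. At most 9 genes were called in the opposite direction, under quantile normalization.

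Large changes were a small part of the differences. Of the called genes, 597 were at least 2-fold higher (3.08% of those tested) and 532 at least 2-fold lower (2.74%). More genes were higher than lower at 2-fold under all 5 scalings, from 591 against 548 under quantile normalization to 753 against 394 under TPM. At 4-fold, as deposited, the numbers were 61 higher and 69 lower, and at 8-fold 13 higher and 9 lower. The 61 genes raised 4-fold had a median of 16.9 FPKM in HD and of 1.42 in CK, and 25 of them lay below 1 FPKM in CK. The 69 genes lowered 4-fold had a median of 16.3 FPKM in CK and of 1.83 in HD, and 23 lay below 1 FPKM in HD. In the group where they were higher, 9 of the 61 (14.8%) and 7 of the 69 (10.1%) stood at 100 FPKM or more, beside 1875 of all tested genes (9.66%). Adding 1 to the FPKM before taking logs shrinks the folds of low genes: on recovered reads (limma-voom), 1799 genes were called with at least a 2-fold change at the deposited scaling and 1877 at total-read scaling, against 1129 here.

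A call shows a change larger than 0, and a missing call does not show an unchanged gene, so the size of each difference was also tested against a fold of 1.5. By limma's test against a minimum fold (treat, adjusted p under 0.05), 1343 genes (6.92%) changed by more than 1.5-fold, 674 upward and 669 downward. Against 1.2-fold the numbers were 2028 and 2292, and against 2-fold 187 and 195. At the other end, 11444 genes (59%) had a 95% interval of the fold change that lay wholly inside 1.5-fold in either direction. Among these steady genes, 4106 were called, so 40.1% of all called genes had a difference from 0 that was bounded below 1.5-fold. For 6619 genes (34.1%) the data decided neither way. The intervals hold for each gene singly and, unlike the p-values, were not adjusted over all tested genes, so the 2 counts differ in error control. Intervals inside 1.2-fold were reached by 2600 genes (13.4%) and inside 2-fold by 16940 (87.3%). For low genes the added pseudocount of 1 narrows the intervals, and with a pseudocount of 0.1 the steady genes numbered 9587.

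**Figure D2:**
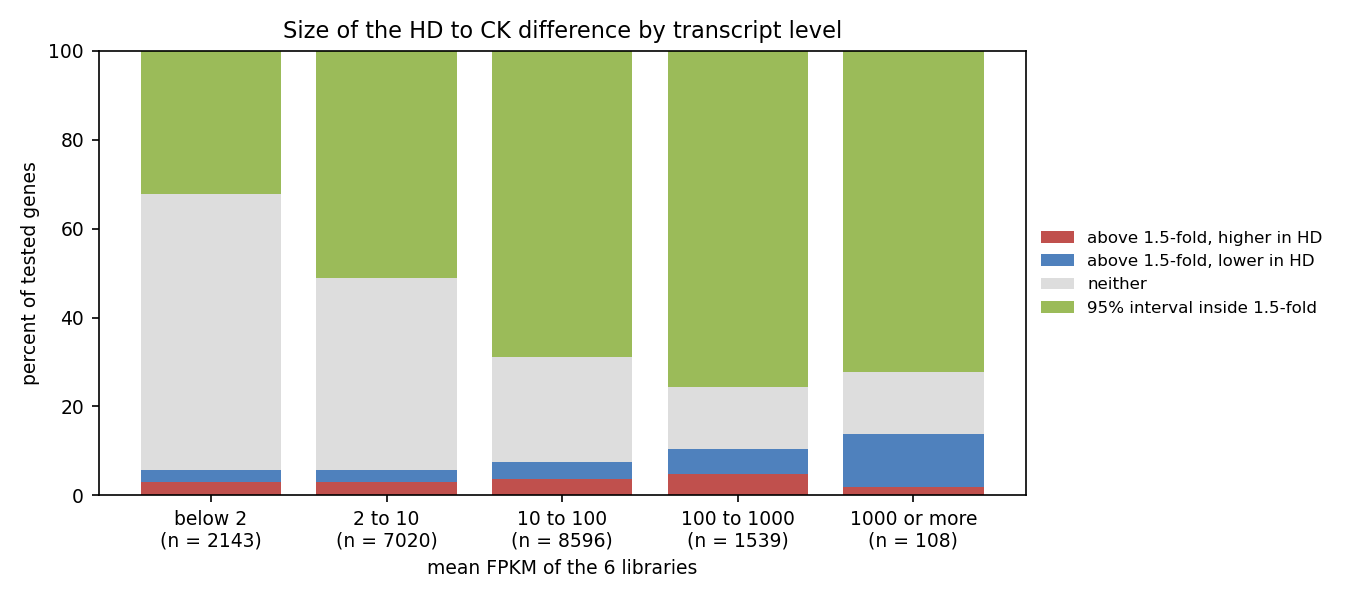
Bars split the tested genes of 5 classes of mean FPKM into those shown to change by more than 1.5-fold upward (red) or downward (blue), those with a 95% interval inside 1.5-fold (green) and the rest (grey), as a percentage of the class. The undecided share shrinks from 62.1% below 2 FPKM to 13.9% at 100 FPKM and more.

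What could be decided followed the level of the transcript. Below 2 FPKM, the median standard error was 0.167, 34.6% of 2143 genes were called and 62.1% were undecided at 1.5-fold. Between 10 and 100 FPKM, the standard error was 0.071, 61.2% of 8596 genes were called and 23.6% undecided. At 1000 FPKM or more it was 0.0281, and 83.3% of 108 genes were called. On log2(FPKM + 1) the median absolute log2 fold change of all genes was 0.316 below 2 FPKM, 0.278 at 2 to 10, 0.26 at 10 to 100 and 0.265 at 100 to 1000. On recovered reads at the deposited scaling (limma-voom), where no 1 is added to the FPKM, it was 0.556, 0.343, 0.272 and 0.266 in the same classes. Error alone raises an absolute fitted change, and the standard error was largest in low genes. Whether changes beyond this error were larger in low genes was not tested. The higher share of calls among abundant genes went with a smaller standard error.

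The direction of the changes also differed by level. Among genes of 2 to 10 FPKM, 1722 were called higher and 1230 lower in HD, with a median log2 fold change of 0.072 over all 7020 genes, against 0.003 over all tested genes. More of these genes were higher than lower under all 5 scalings, narrowly under quantile normalization (1473 against 1416). Genes of 100 to 1000 FPKM leaned the other way, with 461 higher and 733 lower, but this lean turned under TPM (656 and 526) and, barely, under total reads (589 and 584). At 10 to 100 FPKM, 2407 were higher and 2857 lower, and this turned under upper-quartile, TPM and total-read scaling. Of the genes at 1000 FPKM or more, 20 were higher and 70 lower, which turned to 42 and 34 under quantile normalization. Below 2 FPKM, 387 were higher and 355 lower, which turned to 381 and 391 under quantile normalization. Among all called genes, 48.8% were higher as deposited, 65.1% under TPM, 53.6% under upper-quartile scaling, 49.3% under quantile normalization and 60.2% under total reads. At 100 to 1000 FPKM the shares in that order were 38.6%, 55.5%, 43.3%, 47.7% and 50.2%, lower each time. The share at 10 to 100 FPKM was also lower under all 5 scalings, by less, and at 2 to 10 FPKM it was higher under all 5.

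Gene length, recovered together with the reads, was set beside direction as a description, with no test between classes, and the shortest genes leaned upward. Of 670 genes below 300 nt, 185 were called higher and 120 lower, with a median log2 fold change of 0.109, against 0.003 over all tested genes. Changes above 1.5-fold were shown for 43 of them upward and 15 downward, beside 674 and 669 of all tested genes. The 2-fold calls numbered 47 and 18, beside 597 and 532. More of these short genes were higher than lower under all 5 scalings. Of their calls 60.7% to 74.8% were upward, beside 48.8% to 65.1% of all calls. Fewer of the class were called, 45.5% beside 52.8% of all tested genes. The lean was also present at a fixed level: of 315 short genes with 10 to 100 FPKM, 94 were higher and 58 lower, where genes of any length at that level leaned to lower. Genes of 2400 nt or more also leaned upward, with 754 higher and 572 lower under the deposited scaling and more higher than lower under all 5. Of their calls 52.9% to 75.3% were upward over the scalings. Among the 1002 of them with 10 to 100 FPKM, 299 were higher and 325 lower as deposited, with a median log2 fold change of -0.005. Genes of any length at that level had 2407 higher and 2857 lower, with a median of -0.028. Short and long genes at a fixed level were not counted under the other scalings.

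**Figure D3:**
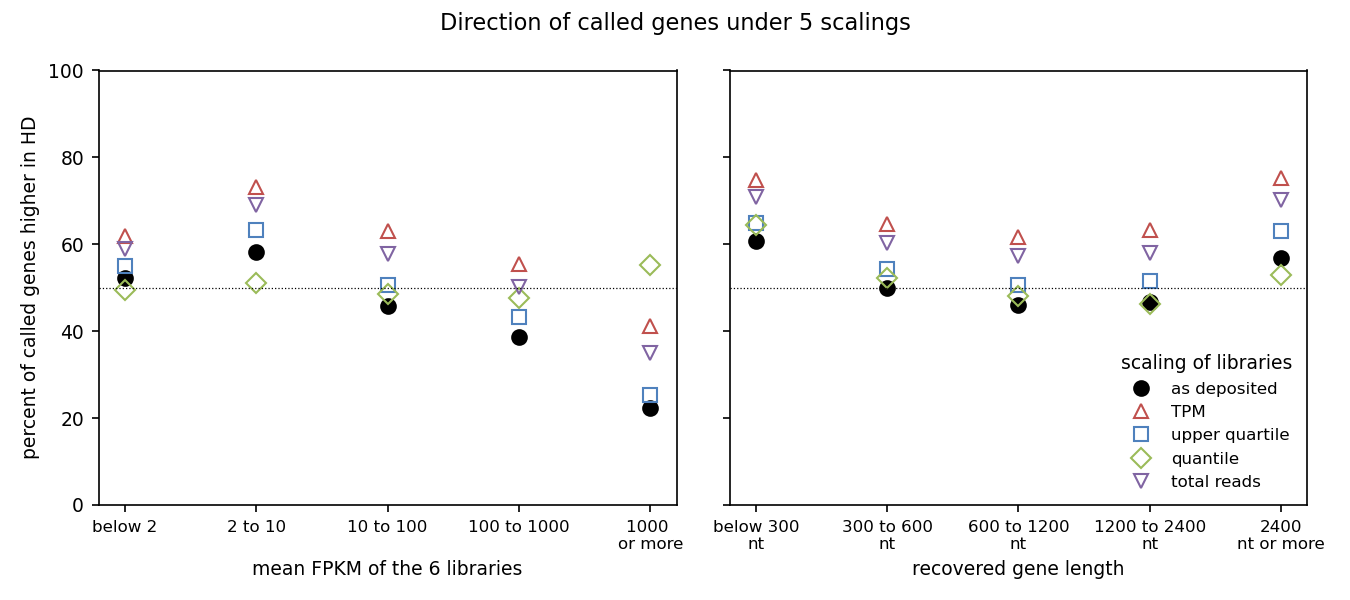
Points give the percentage of called genes that were higher in HD, by class of mean FPKM (left) and of recovered gene length (right), as deposited (black) and under 4 other scalings; the dotted line marks equal numbers in both directions. All 5 points lie above the line for genes of 2 to 10 FPKM, for genes below 300 nt and for genes of 2400 nt or more, and they straddle it in every other class.

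The 6 libraries could be set against each other without a model. In 11703 genes (60.3%) the 3 HD libraries lay wholly above or wholly below the 3 CK libraries, with 5803 above and 5900 below. Of the called genes, 9971 (97.4%) were separated in this way, and 138 genes called higher and 133 called lower had overlapping libraries. Calls and separation use the same values, so this share was nearly fixed in advance and tests nothing. Another 944 genes lay above and 788 below without being called. In 963 genes (4.96%) the nearest libraries of the groups differed by at least 2 times, with 499 genes higher and 464 lower in HD. A gap of at least 4 times was present in 127 and 111 genes, and of at least 10 times in 39 and 28. The numbers in the 2 directions stayed close at gaps of 1.5 and 2 times, and at 4 and 10 times the genes higher in HD were somewhat more numerous. These counts include genes that passed the limit of 1 FPKM through their higher group alone, in which a gap was built in. They were made at the deposited scaling only, and the difference between the directions was not tested.

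**Figure D4:**
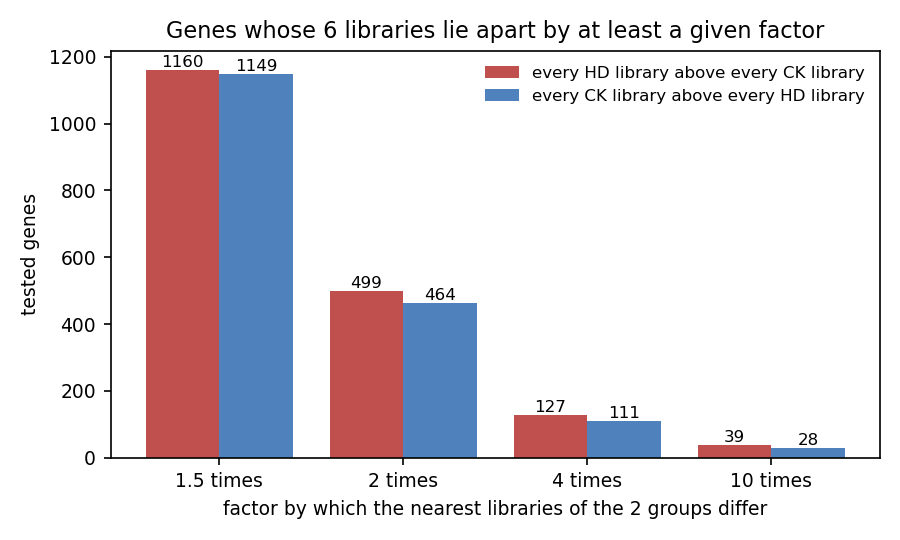
Bars count the tested genes in which the lowest library of one group exceeds the highest library of the other by at least the factor on the horizontal axis, with HD above CK in red and CK above HD in blue. The counts fall from 1160 and 1149 at 1.5 times to 39 and 28 at 10 times.

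Of the called genes with separated libraries, 4 are described singly: those with the largest rise and the largest fall in log2(FPKM + 1), and those with the largest rise and the largest fall in FPKM. Their products are not known from the sources used here. MD values are set beside them. The comparisons share CK or HD libraries and are not independent. The p-values come from the fit over all tested genes, and these genes were picked for the size of the same difference. On the same 19406 genes, 36.8% were called between MD and CK and 43.2% between HD and MD.

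Gb_37031 (recovered length 765 nt) was the gene that rose most from CK to HD. It was listed at 0, 0.0598 and 0.195 FPKM in the CK libraries and at 198, 194 and 199 FPKM in the HD libraries. In recovered reads these were 0, 1 and 3 in CK against 2824, 2826 and 2459 in HD. The transcript was therefore close to undetected at 20 plants per square metre and ranked 726th among the tested genes by mean FPKM at 80. The gene passed the limit of 1 FPKM through the HD libraries alone and was picked for its rise, so no p is given for it. Its fitted log2 fold change depends on what is added before the logarithm, with 7.52 on log2(FPKM + 1), 10.2 with a pseudocount of 0.1 and 11.1 on recovered reads by limma-voom at the deposited scaling. Per read in genes, HD exceeded CK 2430-fold, a ratio that rests on 4 reads over the CK libraries against 8109 over the HD libraries. In MD it stood at 62.7 ± 1.17 FPKM (SD, n = 3), and HD minus MD was 1.64 on the log2(FPKM + 1) scale.

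Gb_19055 (1160 nt) fell most on the log2 scale. It stood at 67.0, 70.7 and 72.9 FPKM in the CK libraries and at 4.30, 4.17 and 3.63 FPKM in the HD libraries, with no overlap. The mean fell from 70.2 ± 2.97 FPKM to 4.03 ± 0.356 (SD, n = 3), a change of -94.3%. On the log2 scale HD minus CK was -3.82 (SE 0.065, adjusted p = 2.95e-11, limma). The transcript was reduced and not lost, since HD still gave 93, 92 and 68 reads. Per read in genes, CK exceeded HD 16.3-fold (exact 95% interval 14.4 to 18.6, counting error only). MD lay between the others at 37.7 ± 1.22 FPKM, and HD minus MD was -2.95 on the log2 scale (adjusted p = 2.17e-10, limma).

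Gb_26428, a short gene of 216 nt, was the most abundant transcript of the control leaves and had the largest fall in FPKM. It stood at 37724, 38494 and 41077 FPKM in the CK libraries and at 18318, 18680 and 21153 FPKM in the HD libraries. Every HD library was thus far below every CK library, and the mean changed by -50.4%. The log2 fold change was -1.01 (SE 0.0558, 95% interval -1.14 to -0.89, adjusted p = 1.01e-07, limma), and the change passed the test against 1.5-fold (adjusted p = 0.000228, limma treat). Its share of the reads in genes was 0.826% over the CK libraries and 0.433% over the HD libraries. At 40 plants per square metre the level was close to that of CK. The MD libraries held 37135, 37523 and 41005 FPKM, and MD minus CK was -0.02 on the log2 scale (95% interval -0.14 to 0.10, adjusted p = 0.806, limma). HD minus MD was -0.99 (95% interval -1.12 to -0.87, adjusted p = 1.98e-07, limma).

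Gb_14539 (645 nt), the third most abundant transcript in both groups, had the largest rise in FPKM. It stood at 14858, 15254 and 12531 FPKM in the CK libraries and at 19035, 19189 and 17030 FPKM in the HD libraries. The lowest HD library exceeded the highest CK library. The rise was modest in relation to the level, with a mean of 14214 ± 1471 FPKM in CK and 18418 ± 1204 in HD (SD, n = 3), or 29.6% more. The log2 fold change was 0.38 (SE 0.0834, 95% interval 0.19 to 0.56, adjusted p = 0.00296, limma), which did not pass the test against 1.2-fold (adjusted p = 0.301, limma treat). The MD libraries held 18028, 17940 and 15148 FPKM, and HD minus MD was 0.11 on the log2 scale (95% interval -0.07 to 0.30, adjusted p = 0.293, limma).

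In both abundant genes the library numbered 3 departed the same way at every density, as the plot of the 4 genes by library shows. It was the highest of its group for Gb_26428 and the lowest for Gb_14539 at CK, MD and HD alike. Without the libraries numbered 3 at every density, the log2 fold changes were -1.04 for Gb_26428 (adjusted p = 1.71e-08, limma) and 0.34 for Gb_14539 (adjusted p = 2.14e-06, limma). For Gb_14539, both missed calls changed with this choice: the rise from CK to HD then passed the test against 1.2-fold (adjusted p = 0.00415, limma treat), and HD minus MD was 0.09 (95% interval 0.05 to 0.12, adjusted p = 0.00344, limma). These values rest on 2 libraries a group, and the choice was made after seeing the data.

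**Figure D5:**
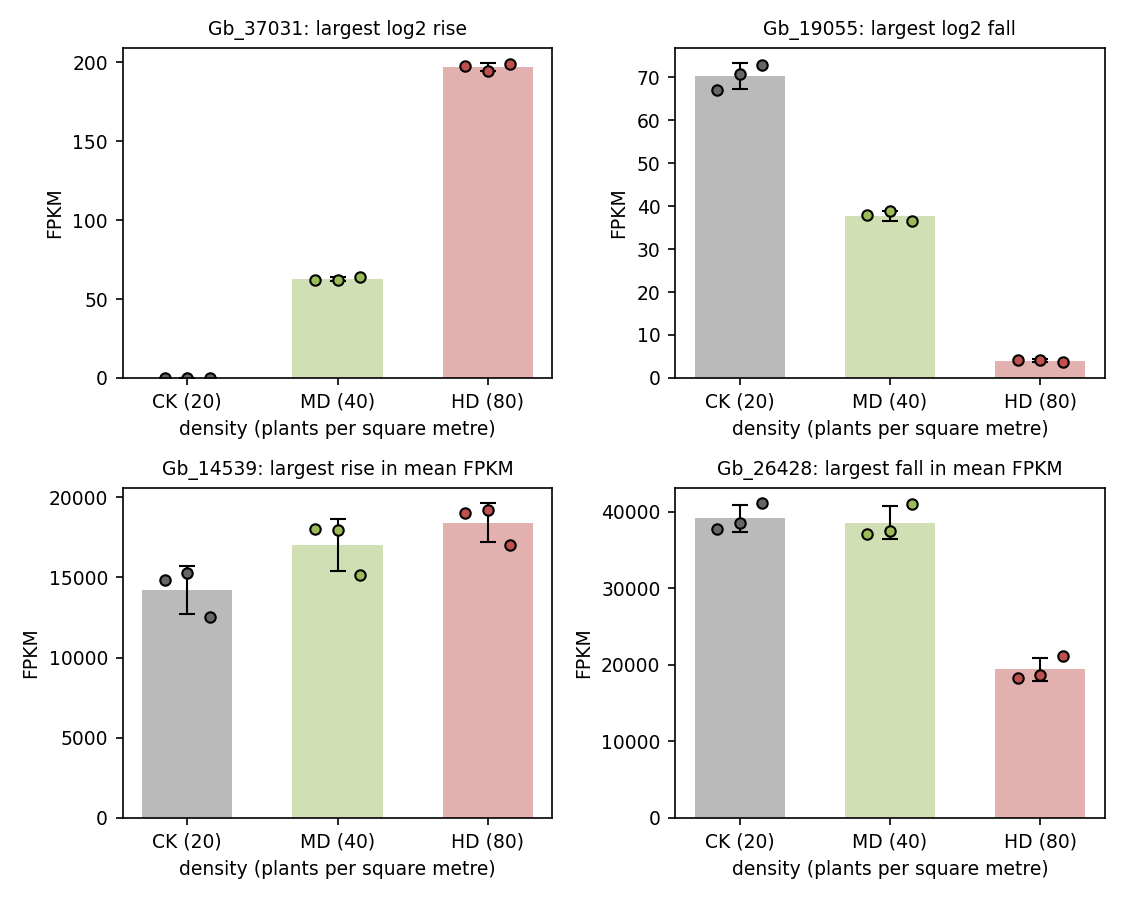
Points are the FPKM of the 3 libraries at each density (numbers 1 to 3 from left to right), bars their mean and error bars their SD, for the 4 genes described singly; every vertical axis starts at 0. Gb_37031 and Gb_19055 change at both steps of density, Gb_26428 has a mean of 38554 FPKM in MD and is lower in HD, and the library numbered 3 of each group lies apart for the 2 lower genes.

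At the deposited scaling the summed FPKM was lower in HD, and much of the summed falls lay in a few abundant transcripts. The size of the decrease depended on the scaling. All genes together summed to 1092780 ± 8700 FPKM in CK and 998731 ± 2500 in HD (SD, n = 3), a change of -8.61%. All 3 HD libraries lay below all 3 CK libraries (exact permutation test, two-sided p = 0.1, the smallest that 3 against 3 can give). With each library scaled to its total recovered reads, the sums were 1068289 ± 1350 and 1038216 ± 3960 (SD, n = 3), a change of -2.82%, again with no overlap, and under TPM the sums are equal by construction. Over the tested genes, as deposited, falls in mean FPKM summed to 181884 and rises to 87724. Falls and rises were about equal in number (9648 and 9758 genes). At total-read scaling, 8154 genes fell by 145195 in sum and 11252 rose by 114899, and under TPM 7447 fell by 123376 and 11959 rose by 123114. Gb_26428 alone held 10.8% of the summed falls, the 10 genes with the largest falls held 27.9% and the 100 largest 52.5%. Rises were spread over more genes, with 15.2% in the 10 largest and 36.5% in the 100 largest. The 100 largest falls held 55.9% at total-read scaling and 57.7% under TPM, and the 100 largest rises 34.2% and 33.4%. Without Gb_26428, the deposited sum over all genes changed by -7.05%. FPKM are divided by length, so short genes weigh more in these sums than in reads. The genes called higher held 235712 FPKM in CK and 316822 in HD, and those called lower held 608241 and 437751. These last 4 sums describe genes chosen by the same difference and test nothing.

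A few transcripts were detected at only 1 of the 2 densities. In 21 of the 41309 genes listed, all CK libraries had 0 recovered reads while each HD library had at least 10, and in 11 the reverse held. They were picked for this difference, so the fold limits below describe them and test nothing. Genes at 0 in a library also lie outside the check of the recovered reads. The 21 genes reached 0.247 to 49.5 FPKM in HD, with a median of 2.11 and 35 to 2311 reads. Set against 3 reads over the CK libraries together, the usual 95% upper limit of a count of 0, they were at least 14.0-fold to 922-fold higher per read in genes, counting error only. The 11 genes had 0.473 to 12 FPKM in CK, with 44 to 330 reads, and were at least 12.2-fold to 91.9-fold lower in HD. Of these, 14 of the 21 and 5 of the 11 passed the limit of 1 FPKM and were among the genes tested. In MD, 6 of the 21 had 0 reads in every library and 7 had at least 10 in each; of the 11, 1 had 0 reads and 3 had at least 10 in each.

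Genes left out by the limit of 1 FPKM were called less often. When every gene above 0 in at least 1 of the 6 libraries was fitted, 10469 of 26909 were called (38.9%). Among the 7503 genes outside the main comparison, whose median level was 0.138 FPKM, 854 were called (11.4%), 472 higher and 382 lower. Fewer genes of the main comparison were called in this fit, so the rise in the total understates the calls outside it. At least 2-fold changes on the log2(FPKM + 1) scale were called for 16 and 6 of them, a scale on which such low levels can hardly move.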

How the data were processed

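RNA from leaves was sequenced in 9 libraries, 3 per density, per the labels. The authors deposited 1 table of FPKM, per the file headers. CASAVA 1.8, TopHat2 and RSEM are listed, with no role for each, per the submitters' processing notes. A genome build or annotation is not given in the sources used here. Each of the 9 value columns belonged to 1 sample title, with 0 columns unused.

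Read numbers and gene lengths were recovered as the whole multiples that the values of a gene form across libraries. Of the 21602 genes with no 0 in any library, 100.0% gave whole numbers to within 0.001 reads and the rounding of the deposited values, and 0 of 1000 genes moved by up to 5% did. Genes at 0 in a library lie outside this check. The library sizes behind the deposited FPKM were 0.9716 to 0.9877 times the recovered reads in CK and 1.0371 to 1.0415 times in HD, so the deposited scaling differs from total reads.

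Values of log2(FPKM + 1) from all 9 libraries were fitted with limma-trend (limma 3.58.1, R 4.3.3), without a replicate block. The genes fitted had at least 1 FPKM in at least 3 of the 6 CK and HD libraries. P-values were adjusted over the 19406 genes by Benjamini-Hochberg with a threshold of 0.05. Intervals are at the 95% level for each gene and were not adjusted. Reads were not tagged by molecule as far as the labels tell, so intervals of read ratios cover counting error only. The fit and the recovery were run on simulated data. For the fit, few genes were changed, all genes shared the same dispersion and the libraries varied independently. That run does not cover changes in most genes or shared deviations of the libraries numbered 3. The genes compared, the classes and the tests were chosen with earlier results of these data known, and the classes of level and length, the gaps between libraries and the sums were set after the values were seen. The 4 named genes follow a fixed rule: the called genes with separated libraries that rose or fell most in log2(FPKM + 1), then in mean FPKM. Gene lists drawn up for the comparison were not used, since no names were at hand.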

Additional observations from a re-analysis of the deposited data

How the results depend on the processing

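The added demand of a 2-fold change left 1129 called genes, 597 higher and 532 lower. All 110 other recomputed counts stayed within 1.5 times of those reported, with 8564 to 11174 genes called, 4078 to 7024 higher, 3765 to 5548 lower, 1056 to 1831 above 1.5-fold and 9587 to 17058 inside it, the highest from the fit without a low-value filter. Leaving out a single CK or HD library gave 9269 to 9364 called genes and 1146 to 1176 above 1.5-fold. Leaving out a single MD library, which bears on the spread alone, gave 10127 to 10182 and 1300 to 1314. Dropping the libraries numbered 3 gave 8564 called genes. Total-read scaling, both limma-voom fits and the removal of the libraries numbered 3 were chosen after seeing the data. The 4 named genes kept direction and call in all 87 recomputed fold changes. They were picked as extremes of the same difference, so this was nearly fixed in advance and tests nothing. Settings that change only the spread or the filter return the same fold change. The values were 0.289 to 0.507 for Gb_14539, -1.08 to -0.862 for Gb_26428, -4.11 to -3.70 for Gb_19055 and 7.46 to 11.19 for Gb_37031, the highest by limma-voom. Gb_37031 has no value where 1 FPKM is required in all 6 libraries. The replicate block gave 10211 called genes; with it, Gb_14539 passed the test against 1.2-fold (adjusted p = 0.00207, limma treat) and HD minus MD was called for it (0.11, adjusted p = 0.00228, limma). The replicate numbers have no stated meaning, so they were not treated as pairs in the main fit. Deviations of CK and HD libraries of equal number had correlations across all genes of 0.045, 0.017 and 0.059. In genes of at least 100 FPKM these were 0.208, -0.004 and 0.492, so the numbers may mark a shared structure that the main fit leaves out. Precision was lowest for low genes, with 62.1% of those below 2 FPKM undecided at 1.5-fold; the part of sequencing depth in this was not tested.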
